A study of Mus musculus with 14 samples.

Results

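Mouse liver was compared between a late and an early phase of regrowth following partial hepatectomy (PHx), in which a surgeon removes some of its lobes. The late side held the 6 arrays of livers taken at 36, 48 and 72 h (2 arrays at each time) and the early side the 6 arrays of livers taken at 4, 8 and 12 h (2 at each time), so 12 of the 14 arrays of the series entered the contrast. The other 2 arrays, of normal liver, were not part of the contrast and are given beside it. The arrays of each side were set by their labelled time, and the comparison was chosen with earlier results of these data known. Every group was total RNA of whole liver, labelled with biotin and hybridised to expression arrays in 1 colour, and the design text says that the livers of 4 to 6 mice were pooled for an RNA extraction. Strain, sex and age are not given in the sources used here. No group is labelled as a sham operation, so surgery and loss of liver tissue cannot be told apart. The labels give no time of day or feeding, so these cannot be told apart from the time after PHx. Whether both arrays at a time came from separate pools is not stated in the labels, so the p-values may measure technical spread.

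After part of the liver is removed, the remaining hepatocytes, which are normally quiescent, leave G0 together. The first hours are known for immediate-early transcription factors and for the acute phase response to interleukin 6, a secretory programme of plasma proteins driven by STAT3. DNA replication and mitosis of hepatocytes follow after a delay, with non-parenchymal cells dividing later. E2F factors act on many replication genes, and the DREAM and MuvB complexes act on many mitotic genes through the cell cycle homology region, a short promoter element, often beside CCAAT boxes bound by NF-Y.

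The deposited values were intensities, 1 per probe set, and their mean, trimmed of 2 percent at either end, lay close to 500.2 on every array. Median intensities ranged from 164 to 233.1 on the late arrays, from 166 to 195.8 on the early arrays, and were 186 and 127.8 on the normal arrays. On 4 arrays, replicate 2 of 8, 12, 36 and 72 h, the pyruvate carboxylase control had a ratio of 5 prime to 3 prime signal of 0.0909 to 0.137, against 0.305 to 0.584 on the other arrays. These 4 arrays lie 2 on each side of the contrast. Albumin was among the brightest probe sets on both sides, with a median intensity of 38425 on late and 46653 on early arrays, and the difference did not pass the test (−0.30 ± 0.17 on the log2 scale, adjusted p = 0.28).

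Genes of pancreatic acinar cells and of skeletal muscle, tissues that are not liver, were present on some arrays. The 29 acinar genes tested had a median intensity of 857.6 and 811.4 at 4 h, 11481 and 9368 at 8 h, 207.9 and 79.7 at 12 h, 44.5 and 1313.9 at 36 h, 165.8 and 95.6 at 48 h, and 83.2 and 67.3 at 72 h. Replicate 2 of 36 h thus stood apart from its pair and from the other late arrays, and both 8 h arrays from all others. The summed acinar intensity ranged from 2195 to 64758 on late and from 4448 to 388996 on early arrays, against 2372 to 4279 on normal arrays. The 25 muscle genes summed to 9834 to 20586 on late, 27888 to 52984 on early and 34049 to 35134 on normal arrays. In the contrast 24 of 29 acinar and 17 of 25 muscle genes were called lower in late livers and 0 higher. Over all tested genes, 6.01% were lower and 10.1% higher. With the time as a random block the calls were 1 acinar and 16 muscle genes, and without replicate 2 of 36 h they were 27 and 17. Both lists are left aside in the account of liver genes. The plot of acinar and muscle genes shows these arrays.

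**Figure D1:**
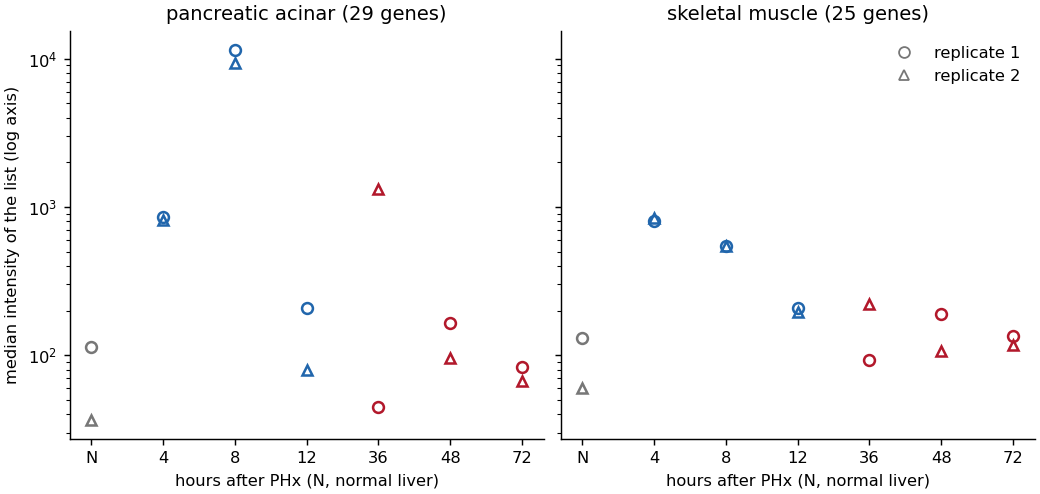
Median intensity of the 29 pancreatic acinar genes (left) and 25 skeletal muscle genes (right) on each array, on a log axis, against hours after PHx (N, normal liver). Circles are replicate 1 and triangles replicate 2, in red for late, blue for early and grey for normal liver. The acinar median reached 11481 and 9368 at 8 h and 1313.9 on replicate 2 of 36 h.

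Of 13580 probe sets tested, 2144 differed between late and early livers (15.8% of those tested, limma, Benjamini-Hochberg adjusted p at or under 0.05). In late livers 1340 were higher (9.87%) and 804 were lower (5.92%), and of these 328 (2.42%) and 294 (2.16%) differed at least 2-fold. Counted once per gene, by the brightest probe set, 852 of 8454 genes were higher (10.1%) and 508 lower (6.01%). The 6 late arrays lay entirely above the 6 early arrays for 426 genes (5.04%) and entirely below them for 201 genes (2.38%). The counts of every gene list stand against these shares of all tested genes. The median difference over all tested genes was 0.01 on the log2 scale, and the histogram of differences shows both tails.

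**Figure D2:**
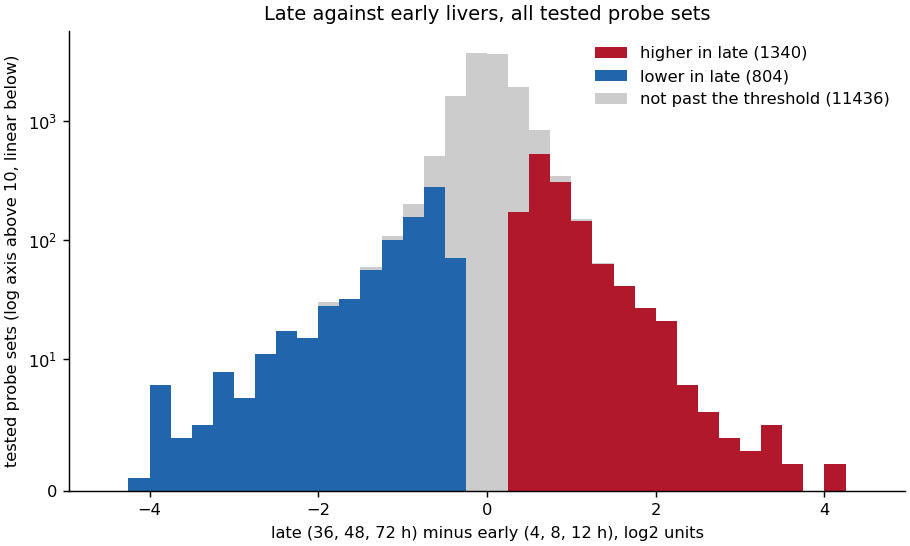
Histogram of the late minus early difference (log2 units) for the 13580 tested probe sets; the vertical axis counts probe sets, on a log scale above 10 and a linear one below. The 1340 probe sets higher in late livers (red) and the 804 lower (blue) are stacked with those not past the threshold (grey).

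These counts measure the difference against the spread between the 2 arrays of a time. In a fit of the 12 arrays as 2 groups, with the time as a random block, 859 probe sets were higher and 457 lower. That fit used a single correlation between the arrays of a time, 0.131, for all probe sets. The times were therefore not themselves the replicates. Without the 4 arrays of low control ratio the counts were 446 higher and 371 lower, and with the split by this ratio as a block over all arrays they were 1529 and 887. Without both 72 h arrays they were 865 and 528, and without both 8 h arrays 872 and 504.

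Normal liver served to place the calls. For the 852 genes higher in late livers, the median distance from normal liver was 0.22 for the late mean and −0.44 for the early mean (log2). Normal liver lay nearer the late mean for 496 of them (58.2%) and nearer the early mean for 356, against 60.9% nearer the late mean among all 8454 genes. For the 508 genes lower in late livers the medians were −0.00 for the late and 0.85 for the early mean, and normal liver lay nearer the late mean for 371 (73.0%). Normal liver lay outside the range between the late and early means for 412 of the higher genes (48.4%) and 333 of the lower genes (65.6%), against 77.9% of all tested genes. Late and early means share the same normal arrays in these distances.

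The pooled sides were not uniform. A moderated F test over 36, 48 and 72 h called 80 probe sets (0.589%), and over 4, 8 and 12 h it called 306 (2.25%). Of the 210 genes called over the early times (2.48%), 26 were acinar and 9 were muscle genes. The count among late times went to 0 without replicate 2 of 36 h (limma, 556 probe sets at an unadjusted p under 0.05) and to 1 without the 4 arrays of low control ratio. The count among early times ranged from 65, without replicate 2 of 4 h, to 801, without replicate 1 of 12 h. Each of the 3 late means lay on the same side of each of the 3 early means for 691 of the 852 higher genes (81.1%). The same held for 344 of the 508 lower genes (67.7%). Among all tested genes the share was 26.2%, counted in either direction. The calls were made from these same means, so a higher share among called genes was fixed by that choice.

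Genes of mitosis made up most of the largest rises in late livers. Of 39 tested mitosis genes, 35 were higher and 0 lower, against 10.1% and 6.01% of all tested genes. Their median difference was 2.01 on the log2 scale, and 31 had late arrays entirely above the early ones (5.04% of all tested genes). The 4 that did not pass were Ccnf (0.68), Kif2c (0.53), Foxm1 (0.35) and Pttg1 (0.05). The list had 48 genes, of which 45 were on the array, and the filter on mean intensity over all 14 arrays lets a gene pass through its late level alone. Leaving out any 1 array left 32 to 35 calls, leaving out the 4 arrays of low control ratio left 33, and the random block for time left 33. In whole liver, more cells in mitosis and more RNA per cell cannot be told apart.

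Cdk1, the kinase that drives entry into mitosis, had an intensity of 747.6 to 2856 on the late arrays (median 1706), against 20.6 to 59.7 on the early arrays (median 38.5) and 78.3 and 116.6 in normal liver. No early array was above the background of its bacterial controls, so the fold is a lower bound, at least 16.0-fold (log2 difference 4.08 ± 0.13, adjusted p = 5.2e-09). Ube2c, the ubiquitin-conjugating enzyme of the anaphase-promoting complex, had 485.1 to 3270 on late arrays (median 1745) and 6.3 to 58.6 on early arrays (median 17.95), at least 13.8-fold higher late (4.16 ± 0.17, adjusted p = 6.0e-08). The groups did not overlap for either gene.

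Birc5, which encodes survivin of the chromosomal passenger complex, ranged from 423.3 to 1573 late and from 14.7 to 33.8 early, at least 9.47-fold higher late (adjusted p = 5.2e-09). Ccnb2, a cyclin partner of Cdk1, ranged from 247.3 to 1671 late and from 7.7 to 29.9 early, at least 7.83-fold higher late (adjusted p = 7.5e-08). Cdc20, the mitotic activator of the anaphase-promoting complex, was above background on every array, with 701.7 to 5033 late (median 3414) and 116.6 to 261.9 early (median 164.8). Its difference was 3.35 ± 0.16 on the log2 scale (adjusted p = 1.4e-07). Cyclin A2 (Ccna2, 2.21), the proliferation marker Mki67 (3.02), the spindle checkpoint gene Mad2l1 (2.92), Cdca3 (2.92) and the microtubule regulator stathmin (Stmn1, 3.01) rose as well, each with late arrays above all early arrays.

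Within the late times the mitosis genes were lowest at 36 h. The median of the 39 genes stood 0.07, 0.21 and 0.19 above normal liver at 4, 8 and 12 h, and 1.42, 2.77 and 2.38 above it at 36, 48 and 72 h. The F test over the late times called 12 of the 39, namely Cdk1, Ccnb2, Cdc20, Plk1, Cenpa, Cenpf, Kif20a, Prc1, Birc5, Cdca3, Ube2c and Stmn1, against 0.674% of all tested genes. Cdc20 had 701.7 and 710.2 at 36 h, 3734 and 5033 at 48 h, and 3822 and 3093 at 72 h. Ccnb2 had 247.3 and 253.6 at 36 h, 1026 and 1177 at 48 h, and 1440 and 1671 at 72 h. As given above, the number of calls of this F test depended on replicate 2 of 36 h. Leaving out either 36 h array leaves a single array at that time. The number of calls fell far more without replicate 2 of 36 h than without replicate 1. For Cdc20 and Ccnb2 replicate 2 of 36 h differed little from its pair.

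DNA replication genes rose as well. The list had 40 genes, of which 37 were on the array, and here too the filter lets a gene pass through its late level alone. Of 25 tested, 21 were higher and 0 lower, against 10.1% and 6.01% of all tested genes. The median difference was 1.22, and 19 had late arrays entirely above the early ones (5.04% of all tested genes). The F test over late times called 0 of the 25 (limma, 0.674% of all tested genes). Their median stood at −0.09, −0.03 and −0.03 from normal at 4, 8 and 12 h, and at 0.85, 1.35 and 0.93 at 36, 48 and 72 h. Mcm6, a subunit of the replicative MCM helicase, had 1391 and 1373 at 36 h, 1128 and 1203 at 48 h, and 647.1 and 917 at 72 h, against 21.1 to 137.9 on the early arrays (3.26 ± 0.23, adjusted p = 3.4e-06). Its F test over the late times did not pass (adjusted p = 0.96).

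Among the other helicase subunits Mcm7 (2.40), Mcm5 (2.14) and Mcm2 (2.11) rose. Rrm2, the small subunit of ribonucleotide reductase, had 1372 to 2936 on late and 234.3 to 384.8 on early arrays (2.42 ± 0.15, adjusted p = 8.8e-07). The sliding clamp Pcna had 2806 to 4356 on late and 1043 to 1359 on early arrays (1.53 ± 0.12), and early livers did not differ from normal beyond the threshold (−0.08, adjusted p = 0.79). Fen1 (0.39), Chaf1b (0.43), Orc6 (0.48) and Pold2 (0.68) were tested and did not pass.

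Of 14 tested G1 regulators, 5 rose and 0 fell, against 10.1% and 6.01% of all tested genes. The same shares stand beside the tubulin and cytoskeleton counts below. Cyclin D1 (Ccnd1), which links growth factor signals to G1 progression, had 2367 to 3783 on late arrays and 459.6 to 1975 on early arrays, against 855.2 and 735.3 in normal liver (1.15 ± 0.26, adjusted p = 0.011). The lowest early value, 459.6, was replicate 2 of 12 h, and the other early arrays had 1618 or more. E2f1 (1.43), the CDK4/6 inhibitors Cdkn2c (1.41) and Cdkn2d (1.01), and the retinoblastoma relative Rbl1 (0.87) were the other risers. The beta-tubulin gene Tubb5 rose (1.89 ± 0.15, adjusted p = 5.3e-06), while Actg1, the cytoplasmic gamma-actin gene, fell, with 5190 to 7710 on late and 16553 to 21426 on early arrays (−1.50 ± 0.13, adjusted p = 1.2e-05). Of the 17 tubulin and cytoskeleton genes, 5 were higher and 1 lower, and 2 were higher without replicate 2 of 36 h or of 72 h.

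**Figure D3:**
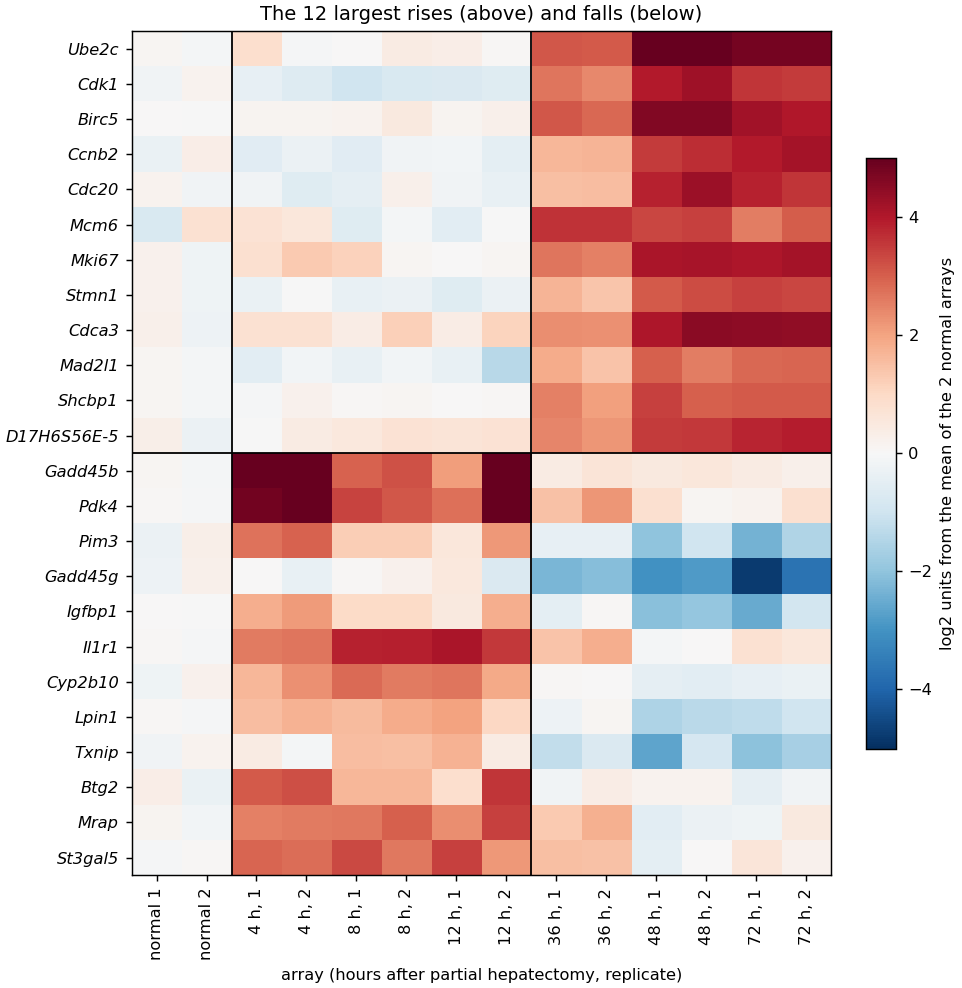
The 12 largest rises (upper rows) and 12 largest falls (lower rows) in late against early livers, as log2 units from the mean of the 2 normal arrays (colour, clipped at 5 units), with arrays in columns in the order of time. Most rising genes were near normal on the 6 early arrays and above it on the 6 late arrays; among the falling genes, the late mean differed from normal by −0.28 for Cyp2b10, −3.12 for Gadd45g and 0.92 for Pdk4.

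The letters TTTGAA were common in the promoters of the risen mitosis genes and scarce in those of the risen replication genes, while CCAAT was common in both. Promoter windows of 250 bases before to 50 after the annotated start were taken from RefSeq on GRCm38.p6 and searched on both strands. The letters TTTGAA of the cell cycle homology region were in 22 of 28 matched promoters of mitosis genes called higher (78.6%), in 2 of 18 of replication genes called higher (11.1%), in 0 of 19 of acute phase and immediate-early genes called lower, and in 11.9% of the promoters of the 6875 tested genes that matched. CCAAT was in 82.1% of the mitosis, 66.7% of the replication, 42.1% of the acute phase and immediate-early promoters and 38.2% of all. Both stood in 75% of the mitosis promoters and 4.89% of all. The E2F letters TTTGGCG were in 3.57% of the mitosis, 22.2% of the replication promoters and 2.65% of all, and the form TTCCCGC in 0 of 28, 38.9% and 7.74%. These are matches of letters in 1 window a gene, without a test. The gene lists were drawn up from known roles, with earlier results of these data known.

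The promoters of 3 of the mitosis genes with large rises and of Mcm6, the replication gene that rose most, are shown as examples, 5′ to 3′ on the gene's strand, with the searched letters of either strand in capitals. Cdk1 (chr10:69352863-69353162, minus strand) and Ube2c (chr2:164769679-164769978, plus strand) hold TTTGAA or its complement TTCAAA near the start, together with CCAAT or its complement ATTGG. Cdc20 (chr4:118437294-118437593, minus strand) has 1 TTTGAA 18 bases before the start between CCAAT letters. Mcm6 (chr1:128359656-128359955, minus strand) has no TTTGAA, 2 copies of TTTGGCG and 2 of ATTGG, the complement of CCAAT. Birc5, which also rose, has none of the searched letters in its window. In Ube2c a CCAAT and an ATTGG overlap as CCAATTGG.
Cdk1: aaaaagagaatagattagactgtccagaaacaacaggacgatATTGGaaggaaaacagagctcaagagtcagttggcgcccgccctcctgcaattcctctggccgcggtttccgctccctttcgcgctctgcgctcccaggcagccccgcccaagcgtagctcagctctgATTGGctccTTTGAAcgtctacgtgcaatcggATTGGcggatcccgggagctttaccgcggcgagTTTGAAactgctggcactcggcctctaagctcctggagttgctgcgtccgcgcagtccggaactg
Ube2c: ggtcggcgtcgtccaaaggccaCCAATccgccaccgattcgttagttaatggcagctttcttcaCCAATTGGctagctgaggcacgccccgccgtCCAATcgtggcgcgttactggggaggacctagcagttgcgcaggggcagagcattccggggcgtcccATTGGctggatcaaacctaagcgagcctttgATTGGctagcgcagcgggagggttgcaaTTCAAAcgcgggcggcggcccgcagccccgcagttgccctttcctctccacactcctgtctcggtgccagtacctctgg
Cdc20: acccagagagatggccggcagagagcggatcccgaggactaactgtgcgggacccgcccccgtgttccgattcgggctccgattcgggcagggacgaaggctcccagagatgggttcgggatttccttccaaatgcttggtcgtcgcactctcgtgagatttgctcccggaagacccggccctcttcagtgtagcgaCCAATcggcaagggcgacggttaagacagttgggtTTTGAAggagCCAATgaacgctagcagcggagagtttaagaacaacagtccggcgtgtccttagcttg
Mcm6: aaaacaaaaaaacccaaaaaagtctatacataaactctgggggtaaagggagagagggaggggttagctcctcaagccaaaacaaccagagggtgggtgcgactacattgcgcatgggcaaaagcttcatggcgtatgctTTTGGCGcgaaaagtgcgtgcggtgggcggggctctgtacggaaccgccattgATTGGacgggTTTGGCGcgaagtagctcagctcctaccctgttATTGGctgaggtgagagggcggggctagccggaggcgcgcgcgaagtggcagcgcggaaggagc

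Immediate-early genes, the transcription factors and regulators induced within minutes to hours of a stimulus, fell in late livers. Of 23 tested, 14 were lower and 0 higher, against 6.01% and 10.1% of all tested genes, with a median difference of −0.94. Gadd45b, a stress and growth arrest gene, had 28.7 to 54.6 on late arrays (median 40.9) and 247.9 to 3124 on early arrays (median 1554), against 18.9 and 10.7 in normal liver (−3.59 ± 0.38, adjusted p = 5.7e-05). The early values were uneven, with 3124 and 2935 at 4 h, 493.2 and 592.6 at 8 h, and 247.9 and 2515 at 12 h. Only 1 late array was above the bacterial background.

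Btg2 (−2.36), an antiproliferative p53 target, and Zfp36 (−1.77), which destabilises cytokine mRNAs, fell with non-overlapping arrays. For Btg2 this was required, as for all of the 12 largest falls. Myc had 70.4 to 287.7 on late and 319.7 to 1536 on early arrays, against 555.9 and 574.4 in normal liver (−1.86 ± 0.23, adjusted p = 0.00018). Late livers were below normal for Myc (−1.69, adjusted p = 0.0098), and early livers did not differ from normal beyond the threshold (0.17, adjusted p = 0.75). Junb (−1.46), Egr1 (−1.34) and Jun (−0.94) fell, and Fos (−0.35) and Nr4a1 (−0.02) did not pass. The median of the 23 genes stood at 1.04, 0.54 and 1.22 above normal at 4, 8 and 12 h, and at 0.06, 0.38 and 0.01 at 36, 48 and 72 h.

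The largest falls among acute phase genes were those of a cytokine receptor and of regulators. Over all tested genes, 6.01% were lower and 10.1% higher. Of 29 tested, 11 were lower and 1 higher, with a median of −0.45, and 7 were lower without replicate 1 of 36 h or replicate 2 of 8 h. Il1r1, the interleukin 1 receptor, had 257.2 to 1101 on late arrays and 1973 to 5526 on early arrays, against 293 and 257.5 in normal liver (−2.68 ± 0.14, adjusted p = 1.9e-07). Socs3, the feedback inhibitor of STAT3, had 308 to 947.2 on late and 1918 to 4029 on early arrays, against 247.6 and 205.5 in normal liver (−2.31 ± 0.19, adjusted p = 7.4e-06). Cebpd (−2.01) and Cebpb (−1.45), transcription factors of acute phase genes, and Stat3 itself (−0.73) also fell.

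Serum amyloid A1 (Saa1) had 10006 to 32361 on late and 28516 to 49876 on early arrays, against 1041 and 1066 in normal liver, so the late and early arrays overlapped and both sides were above normal (4.14 late and 5.08 early on the log2 scale, adjusted p = 2.0e-06 and 6.8e-07). Its difference passed the main test (−0.95 ± 0.17, adjusted p = 0.0026) and did not with the time as a random block (adjusted p = 0.061). Lcn2, a siderophore-binding acute phase protein, had 5142 to 28851 late and 9421 to 45690 early, against 352.4 and 257.2 in normal liver, and its late minus early difference did not pass (−0.61 ± 0.29, adjusted p = 0.18). Saa4 (0.59) was the 1 gene of the list to rise, and 0 rose without any 1 of 5 arrays, among them replicate 1 of 36 h.

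Metallothioneins, metal-binding proteins that buffer zinc, were above normal liver on both sides and lower late than early. Mt2 had 6317 to 21978 on late and 36100 to 45670 on early arrays, against 2952 and 2086 in normal liver (−2.02 ± 0.17, adjusted p = 8.9e-06), and Mt1 had 13008 to 25865 and 42727 to 60463, against 4261 and 4756 (−1.41 ± 0.15). The zinc importer Slc39a14 (−2.06) and haem oxygenase Hmox1 (−2.12) fell with them, and Nqo1 rose (0.79). Of the 17 genes tested in the list of metallothionein and NRF2 genes, 5 were lower and 2 higher, with a median of −0.00. Over all tested genes, 6.01% were lower and 10.1% higher, shares that also stand beside the cytokine and NF-kB counts below. Cdkn1a, which encodes the cyclin-dependent kinase inhibitor p21, had 706.8 to 1627 on late and 1859 to 5352 on early arrays, against 222.5 and 274.4 in normal liver (−1.28 ± 0.22, adjusted p = 0.0018). Of 13 cytokine and NF-kB genes tested, 5 fell and 0 rose, among them the neutrophil chemokine Cxcl1 (−1.60), and 2 were lower without the 4 arrays of low control ratio or with the random block for time, and 3 without replicate 2 of 4 h.

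**Figure D4:**
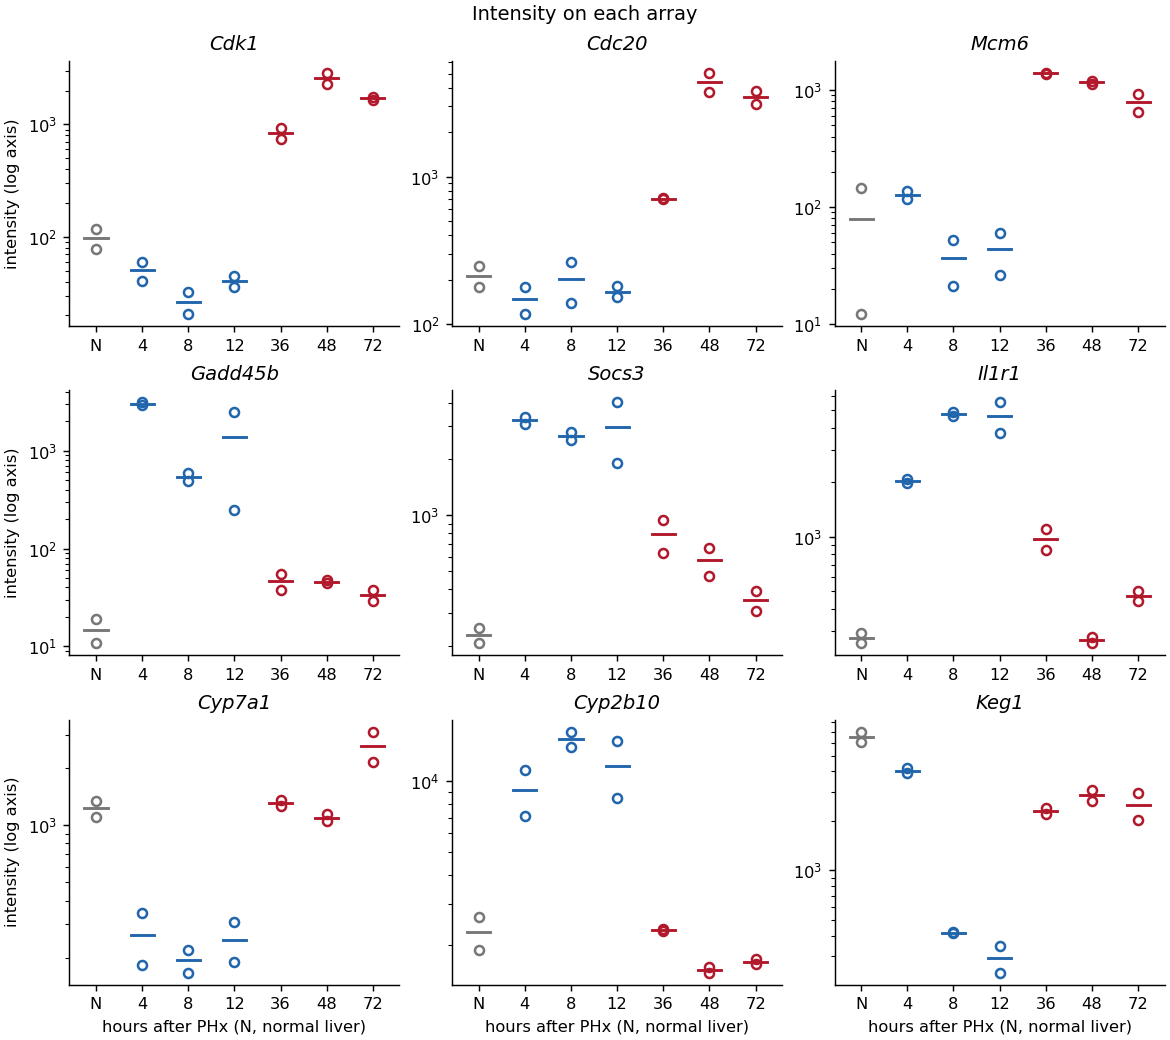
Intensity of 9 genes on each array (open circles, log axis) with the mean of the 2 arrays (line), against hours after PHx (N, normal liver); late arrays are red, early arrays blue and normal liver grey. Cdk1, Cdc20 and Mcm6 were higher on all 6 late arrays, Gadd45b, Socs3, Il1r1 and Cyp2b10 lower, and Keg1 overlapped through its 4 h arrays (4174 and 3914).

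Genes of ribosome biogenesis fell by less, and their count depended on the arrays. Of 30 tested, 16 were lower and 0 higher, against 6.01% and 10.1% of all tested genes. Their median difference was −0.49, and 2 had late arrays entirely below the early ones (2.38% of all tested genes). Their median stood 0.19, 0.88 and 1.01 above normal at 4, 8 and 12 h, and 0.32, 0.17 and 0.32 at 36, 48 and 72 h. Mybbp1a (−1.03), Nop58 (−0.94), Heatr1 (−0.91) and nucleostemin (Gnl3, −0.86) had the largest falls. Without the 4 arrays of low control ratio 3 were called, with the random block for time 7, and without 1 array 8 (replicate 2 of 4 h) to 16. By contrast 0 of 25 cytosolic ribosomal protein genes, 0 of 34 proteasome genes and 0 of 38 oxidative phosphorylation genes were called in either direction (limma), with medians of 0.00, 0.04 and −0.05.

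**Figure D5:**
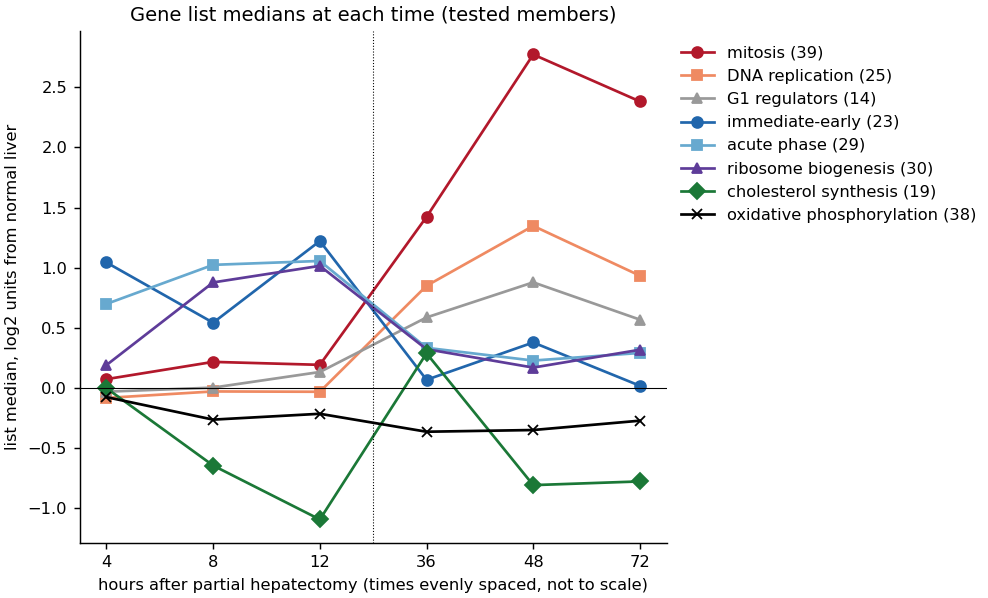
Median of the tested genes of 8 lists at each time, as log2 units from normal liver; the number of genes is in parentheses, times are evenly spaced, and the dotted line parts early from late times. The mitosis median was 0.19 at 12 h, 1.42 at 36 h and 2.77 at 48 h, the immediate-early median 1.22 at 12 h and 0.06 at 36 h, and the cholesterol synthesis median was above normal at 36 h and below it at 48 and 72 h.

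Genes that respond to glucocorticoids and fasting, when the liver makes glucose and burns fat, had 8 of 20 lower and 3 higher, against 6.01% and 10.1% of all tested genes. Without the 4 arrays of low control ratio 0 were higher and 8 lower, with the time as a random block 2 and 6, and without replicate 1 of 12 h 5 and 8. Pdk4, which blocks entry of pyruvate into the citric acid cycle, had 138.7 to 797.4 on late and 1175 to 6183 on early arrays, against 135.3 and 120.4 in normal liver (−3.09 ± 0.33, adjusted p = 5.9e-05). Igfbp1, a liver-secreted binding protein of insulin-like growth factors, had 1487 to 9172 on late and 12326 to 38965 on early arrays, against 8926 and 8583 in normal liver (−2.69 ± 0.28, adjusted p = 4.3e-05). Lpin1 (−2.51), a phosphatidate phosphatase, fell too. Cidec, a lipid droplet protein, passed the main test (−2.25 ± 0.21) but had 209.1 and 195.1 at 4 h, 2393 and 2125 at 8 h, 3163 and 1152 at 12 h, 728.6 and 532.8 at 36 h and 57.9 to 79.6 later, and with the time as a random block its adjusted p was 0.057.

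Some falls ended below normal liver. Gadd45g had 20.9 to 440.9 on late and 1251 to 3045 on early arrays, against 1757 and 2487 in normal liver (late minus early −3.08 ± 0.24, adjusted p = 4.9e-06). Its late livers were below normal (−3.12, adjusted p = 0.00019) and its early livers were not (−0.05, adjusted p = 0.94). Thrsp, a lipogenic regulator, showed the same order, −1.70 late against early and −1.54 late against normal (adjusted p = 0.018). The kinase gene Pim3 (−3.09), Txnip (−2.44), which inhibits thioredoxin, the melanocortin receptor accessory gene Mrap (−2.32) and the ganglioside synthase St3gal5 (−2.32) complete the 12 largest falls with Cyp2b10.

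Cytochrome P450 genes had 6 of 27 lower and 0 higher, against 6.01% and 10.1% of all tested genes. Cyp2b10, the drug-metabolising enzyme that the nuclear receptor CAR induces, had 1528 to 2345 on late and 7124 to 16282 on early arrays, against 1914 and 2627 in normal liver (−2.60 ± 0.17, adjusted p = 1.8e-06). Its late level did not differ from normal beyond the threshold (−0.28, adjusted p = 0.56). The CAR gene itself, Nr1i3, ran the other way, with 826.7 to 1682 on late and 314.6 to 899.7 on early arrays, against 1824 and 1423 in normal liver (1.10 ± 0.19, adjusted p = 0.0022). Cyp2e1 did not pass (−0.31, adjusted p = 0.18). Without the 4 arrays of low control ratio 2 of the P450 genes were called, and without 1 array 2 (replicate 2 of 4 h) to 8.

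Of 22 bile acid genes 4 were higher and 4 lower, against 10.1% and 6.01% of all tested genes. Cyp7a1, which catalyses the rate-limiting step from cholesterol to bile acids, had 1049 to 3104 on late arrays (median 1310) and 166.7 to 345.9 on early arrays (median 205.7), against 1104 and 1348 in normal liver (2.49 ± 0.17, adjusted p = 2.8e-06). Early livers were thus below normal (−2.16, adjusted p = 0.00028), and late livers did not differ from it beyond the threshold (0.33, adjusted p = 0.47). Nr0b2, the repressor SHP, rose as well (0.79). Cyp27a1, of the acidic pathway, had 4338 to 5744 on late and 7644 to 12356 on early arrays (−0.97 ± 0.12, adjusted p = 0.00023), and Cyp8b1, which makes cholic acid, fell by 0.88 on the log2 scale. With the time as a random block 1 gene of the list was higher and 3 were lower, and without 1 array 1 (replicate 2 of 8 or of 72 h) to 5 were higher.

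Among metabolic genes low early, Ppp1r3c, which targets a phosphatase to glycogen, had 931.9 to 1933 on late and 86.1 to 488.4 on early arrays, against 1625 and 1783 in normal liver (2.11 ± 0.20, adjusted p = 2.1e-05). Srebf1, the transcription factor of fatty acid synthesis, had 2079 to 4578 on late and 751.5 to 1773 on early arrays, against 4117 and 4429 in normal liver (1.19 ± 0.18, adjusted p = 0.00073). Slc40a1, the iron exporter ferroportin, showed the same order (1.46 ± 0.14, adjusted p = 2.5e-05), and so did the liver transcription factor Hhex (1.23 ± 0.14). Of the 25 hepatocyte identity genes 6 were higher and 1 lower, against 10.1% and 6.01% of all tested genes. The higher ones were Hhex, Nr1i3, Foxa3, Nr5a2, Foxa2 and Foxa1, all transcription factors, and the lower one was Apoa1, while the list median was −0.20 and turned to 0.10 under quantile normalization. Without replicate 1 of 72 h 3 of the list were higher, as with the time as a random block, and the Apoa1 call was lost when most single arrays of the contrast were left out.

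Cholesterol synthesis genes differed among the times within each side. Of 19 genes 6 were higher and 1 lower, against 10.1% and 6.01% of all tested genes, with a median difference of 0.28. Yet the median stood at −0.00, −0.65 and −1.10 from normal at 4, 8 and 12 h. At 36, 48 and 72 h it stood at 0.29, −0.81 and −0.78. The F test called 9 of 19 over the late times and 8 over the early times, against 0.674% and 2.48% of all tested genes. Mvk, mevalonate kinase, had 519.2 and 564.8 at 4 h, 53.2 and 48.6 at 8 h, 14.7 and 53.1 at 12 h, 854.9 and 771.5 at 36 h, 169 and 314.9 at 48 h, and 194.5 and 215 at 72 h. With the time as a random block 1 of the list was higher and 1 lower, and without the 4 arrays of low control ratio 2 were higher and 0 lower.

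Other called genes also differed among the early times. Keg1, a liver gene of the male-biased list, had 4174 and 3914 at 4 h, 413.4 and 418.6 at 8 h, 238.2 and 348.2 at 12 h, and 2032 to 3071 on the late arrays, against 6975 and 6039 in normal liver (1.56 ± 0.14, adjusted p = 1.5e-05, and 0.12 with the time as a random block). Hsd3b5, a male-biased steroid-metabolising gene, had 2027 and 1761 at 4 h, 7.8 to 69.3 at 8 and 12 h, 617.6 and 903.9 at 36 h, 577 and 927.8 at 48 h, and 16 and 115.8 at 72 h. Its pooled difference of 0.85 (adjusted p = 0.035) became −0.01 without both 8 h arrays. Sc5d, of late cholesterol synthesis, likewise had 7091 and 7148 at 4 h against 1749 to 3288 at 8 and 12 h.

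Among genes of other cells, Marco (0.94), Cd5l (0.99) and Slc40a1 of the 21 macrophage genes were higher and Cd14 (−1.72) and Laptm5 (−0.61) lower. These 3 and 2 genes stand against 10.1% and 6.01% of all tested genes, and 1 was higher and 1 lower without the 4 arrays of low control ratio. The 10 neutrophil genes had 2 lower and 0 higher, but 0 were lower without replicate 2 of 4 h, replicate 2 of 8 h or replicate 1 of 48 h, and 1 with the time as a random block. Their summed intensity was 7070 to 30351 on late and 11952 to 48289 on early arrays, against 1188 to 1749 in normal liver. Prtn3, which encodes the myeloid protease proteinase 3, was chosen for its F value over the late times. It had 73.4 and 89.3 at 36 h, 373.4 and 529.1 at 48 h and 791.5 and 907.6 at 72 h, against 15.8 to 112.9 on the early arrays and 16.3 and 17 in normal liver (2.19 ± 0.17, adjusted p = 4.6e-06). The parts that other cells had in the results for liver genes were not tested.

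Several landmark genes did not separate the sides. Hgf, the hepatocyte mitogen, had 144.3 to 229.6 on late and 130.8 to 232.5 on early arrays (−0.00 ± 0.12, adjusted p = 0.99). Afp, the fetal liver protein, had 105.5 to 339.5 on late and 77.1 to 230.4 on early arrays (0.28 ± 0.20, adjusted p = 0.42). Foxm1, a mitotic transcription factor, had 165.6 to 618.3 on late and 62.2 to 518.1 on early arrays (0.35 ± 0.26, adjusted p = 0.44), so its arrays overlapped while those of most mitosis genes did not.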

How the data were processed

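Expression was measured on 14 arrays in 7 groups of 2. The authors deposited intensity values, 1 per probe set, on a linear scale and already scaled between arrays, as the values themselves show. The sources used here do not name the software that made them, and the design text names GeneSpring for the authors' own 2-fold selection. From the deposited intensities, log2(intensity + 56.6) was computed, 56.6 being the 25th percentile, so fold changes of dim genes are understated. The 64 control probe sets were left out, and probe sets with a mean of at least 128.7 (40th percentile) were tested, 13580 in all. Gene names came from the array's annotation (20380 probe sets with 1 symbol, 691 with several and 1555 with none), and 20364 were matched by gene identifier to the RefSeq table of GRCm38.p6. Each gene is given by its brightest tested probe set.

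A linear model with 7 groups was fitted with limma 3.58.1 in R 4.3.3, variances being moderated across probe sets (residual degrees of freedom 7, prior 5.07). The contrast was the mean of the 36, 48 and 72 h groups minus the mean of the 4, 8 and 12 h groups, with p-values adjusted by Benjamini-Hochberg at 0.05. Errors are standard errors of that difference. Moderated F tests compared the times within each side. An array's background was set at the 95th percentile of its 27 bacterial controls, and where no array of a side exceeded its own, the fold is a lower bound. With 2 arrays a time, the number of arrays limits precision. The members and the gene lists were chosen with earlier results of these data known. Genes named are the 12 largest rises and falls with non-overlapping arrays (acinar and muscle genes aside), up to 4 called genes of each list, landmark genes, and the 4 largest F values of each side; further list members were named after their values were seen. On simulated data of 13580 probe sets the contrast recovered 74 of 100 changed by 1 log2 unit and 99 of 100 changed by 2. False calls numbered 11 among the unchanged probe sets. The simulated noise was normal and independent on each array, without differences among the times of a side or the split by control ratio. These rates therefore do not carry over to real calls where such differences are present. Alternatives covered the normalization, pseudocount, filter, variance model, blocks, gene summary and leaving out arrays or times.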

Additional observations from a re-analysis of the deposited data

Results flagged for a closer look

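Among 316 sets of 6 arrays (158 named genes, 2 sides), 25 (7.91%) had a highest or lowest array far from the other 5 by Dixon's test. For 6 independent values of 1 normal distribution the rate is about 1 in 20. Each set here pools 3 times and the genes share the same arrays, so that rate is not the chance rate of these sets. Replicate 2 of 36 h was the array in 11 of them. It was the highest late array for the acinar genes Cela3b (5182.5), Cpa1 (4040), Cpb1 (3634.6) and Ctrl (2926.2), for the muscle genes Acta1 (901), Myh1 (306.8), Mb (224.3) and Tnnc2 (222.4), for S100a8 (820.4) and for Nupr1 (220.4), and the lowest for Nags (1217).

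Replicate 2 of 12 h was the lowest early array for Ccnd1 (459.6), Mad2l1 (21.9) and Marco (70), and the highest for Cdkn1a (5352.4), Chac1 (1534.8) and Heatr1 (2169.1). Replicate 1 of 12 h was the highest for Asl (11967) and the lowest for Cxcl1 (1219.1). Replicate 2 of 4 h was the highest early array for Alb (65335) and Prtn3 (112.9). Among late arrays, replicate 1 of 72 h was the lowest for Cebpb (1541.1) and Timp3 (150.9), replicate 2 of 72 h the lowest for Tm7sf2 (1126.3), and replicate 2 of 48 h the highest for Cyp2e1 (32256).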

How the results depend on the processing

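The counts of 1340 higher and 804 lower probe sets moved to 859 and 457 with the time as a random block, 446 and 371 without the 4 arrays of low control ratio, 865 and 528 without both 72 h arrays, 872 and 504 without both 8 h arrays, and 328 and 294 at 2-fold. On these 4 arrays alone, chosen after seeing the data, limma called 0 higher and 0 lower, with 2363 probe sets at an unadjusted p under 0.05 (3909 in the main comparison). Leaving out 1 array gave 913 to 1595 higher and 566 to 917 lower. Among the late times, 80 probe sets became 148 with array weights, 128 with a pseudocount of 226.4 and 44 with one of 14.15, 1 without the 4 arrays, and 0 to 109 without 1 array. Among the early times, 306 became 719 with array weights, 465 with a pseudocount of 226.4, 125 without the 4 arrays, and 65 to 801 without 1 array. Of the 152 named genes called, 109 were called with the time as a random block, 103 without the 4 arrays and 150 with the replicate block. The replicate number as a block gave 1414 higher and 828 lower, 81 and 286 for the F tests; the same-numbered arrays of 2 times correlated at −0.19 to 0.53, above 0.1 in 9 of 21 pairs, so the numbers were not taken to pair the arrays. The 6 pairs among 8, 12, 36 and 72 h, whose replicate 2 has the low control ratio, lay at 0.14 to 0.31, and the split by this ratio as a block gave 1529 higher and 887 lower, 81 and 304 for the F tests. Differences that changed sign were those of Alb (0.09) and Cyp2e1 (0.01) under quantile normalization, Foxm1 on the 4 arrays (−0.42) and without 12 h (−0.02), Hsd3b5 without 8 h (−0.01), and Hgf, with −0.06 to 0.06 without 1 array (above 0 in 6 of these fits, at 0.01, 0.01, 0.02, 0.03, 0.04 and 0.06), 0.06 without 12 h, 0.07 without 72 h and 0.10 without 8 h. The cause of these changes was not tested, and some of these fits also held fewer arrays.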
